A study of Mus musculus with 6 samples.

Results

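Genes of the p53 pathway were followed in cells described as T-cell progenitors that had been grown from mouse embryonic stem cells. p53, encoded by Trp53, is a transcription factor that is stabilised by DNA damage and other stress and then switches on genes for cell cycle arrest, cell death and DNA repair. MDM2 and MDM4 hold p53 in check, and Mdm2 is itself a p53 target, so the pathway carries its own negative feedback. In developing T cells the p53 checkpoint is known for removing cells whose DNA breaks, including those made by antigen receptor rearrangement, are not repaired. The list held 34 genes, named by symbol. Of these, 31 had a probe set annotated to that symbol alone, and 28 were bright enough to be tested, among 10302 genes tested in all. Trp53, Bax and Gdf15 were not analysed here. Plk3, Tnfrsf10b and Eda2r had probe sets under the minimum, which asked that 3 or more of the 6 arrays reach a log2 intensity of 4. For Plk3, a polo-like kinase, and Tnfrsf10b, a death receptor, 0 arrays reached that level, and for Eda2r, a receptor of the same family, 2 arrays did.

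Cells from Gata3-/- stem cells, which have no intact copy of the transcription factor gene Gata3, were set against Gata3+/- cells with 1 disrupted copy, with 3 arrays of each genotype. Wild-type cells were not analysed here. Both genotypes were grown on OP9 and OP9-DL1 stroma with the cytokines IL-7 and Flt3L, and the progenitors were sorted by flow cytometry before RNA was isolated. The labels call the arrays biological replicates without saying whether they came from separate cultures or clones, so p-values measure the spread between these arrays only. The labels give neither the sort markers, nor the number of stem cell clones, nor the disrupted part of Gata3.

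Facts of the whole series bear on what follows. Of 15 T-lineage markers with a probe set, among them Cd3e, Ptcra, Bcl11b and Rag1, 0 reached the minimum on any array, and the highest value was 3.41, so the T-cell label was not borne out by these markers. All 9 macrophage and monocyte markers were tested. Over the tested probe sets, arrays of 1 genotype correlated by 0.974 to 0.990, and arrays of different genotypes by 0.956 to 0.982. The probe set for Gata3 itself gave 5.87, 6.44 and 5.48 on Gata3-/- arrays and 5.39, 6.40 and 5.86 on Gata3+/- arrays (difference 0.05, SE 0.34, adjusted p = 0.954). It does not check the genotypes, since the disrupted part is not known. In a sorted population measured as a whole, fewer cells of a type and less RNA per cell cannot be told apart.

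p53 binds DNA at pairs of a 10-base unit, separated by a spacer of up to 13 bases. The unit's consensus, which reads alike on both strands, was searched for in the 250 bases before each annotated start (RefSeq, GRCm38.p6). Such windows were at hand for 21 of the 28 tested members, 29 windows in all. An exact unit lay in 9 of the 29 windows (31%) and in 7.13% of all 32851 windows. A pair with no mismatch lay in 1 member window, that of Cdkn1a, and in 0.0639% of all windows. With at most 1 mismatch over the pair, 3 member windows and 0.898% of all windows held one. These are matches of letters near a start, and p53 elements known for several members lie in introns or further upstream, outside these windows. No other motif was searched. The downstream start listed for Cdkn1a had no unit in its window. Zmat3 and Xpc had no window in the table used.

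The windows of Cdkn1a, Ccng1 and Polk are shown because they hold a pair, and that of Dram1 because it holds none and its gene moved the other way. All are 5′ to 3′ on the strand of the gene, and capitals mark exact 10-base units and the pair with the fewest mismatches. In Cdkn1a the 10 bases right after the second capital unit match the consensus with 1 mismatch. They could pair with that unit without a spacer, and are left in lower case.
Cdkn1a, upstream start, chr17:29090729-29090978, + strand, pair starting 73 bases before the start with a spacer of 12 bases: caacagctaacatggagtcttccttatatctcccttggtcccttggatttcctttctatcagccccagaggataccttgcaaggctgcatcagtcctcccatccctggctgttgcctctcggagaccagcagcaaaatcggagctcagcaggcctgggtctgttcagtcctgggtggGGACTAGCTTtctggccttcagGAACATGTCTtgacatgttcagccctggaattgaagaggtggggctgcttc
Ccng1, chr11:40755287-40755536, - strand, pair with 1 mismatch starting 195 bases before the start: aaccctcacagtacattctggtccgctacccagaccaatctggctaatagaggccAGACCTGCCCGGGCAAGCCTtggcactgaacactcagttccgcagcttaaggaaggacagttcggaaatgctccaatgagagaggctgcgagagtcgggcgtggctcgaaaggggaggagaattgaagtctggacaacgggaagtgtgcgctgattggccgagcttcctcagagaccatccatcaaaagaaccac
Polk, internal start, chr13:96519188-96519437, - strand, pair with 1 mismatch starting 231 bases before the start: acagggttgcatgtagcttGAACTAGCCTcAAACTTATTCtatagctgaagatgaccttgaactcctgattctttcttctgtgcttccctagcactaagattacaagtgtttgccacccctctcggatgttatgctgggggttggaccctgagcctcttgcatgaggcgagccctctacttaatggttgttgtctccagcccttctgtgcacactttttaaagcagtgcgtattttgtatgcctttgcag
Dram1, chr10:88357076-88357325, - strand, no unit: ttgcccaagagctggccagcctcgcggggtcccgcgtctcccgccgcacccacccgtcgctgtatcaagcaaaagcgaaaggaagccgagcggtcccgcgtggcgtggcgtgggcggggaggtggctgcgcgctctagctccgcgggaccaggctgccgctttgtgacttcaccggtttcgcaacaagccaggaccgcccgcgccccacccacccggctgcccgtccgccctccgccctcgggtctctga

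Single exact units stood in the windows of 6 further members, and are shown to let them be compared with those above.
Mdm2, 186 bases before the start: GAACTTGCCT
Ppm1d, 132 bases before the start: GAGCTTGCTC
Gadd45a, 40 bases before the start: GGGCTAGCCC
Sesn1, second listed start, 173 bases before it: AAGCTTGTTT
Aen, second listed start, 121 bases before it: GGGCTTGTCC
Ei24, 10 bases before the start: GGGCATGCCC
The members with a unit include genes with higher, lower and nearly equal levels in Gata3-/- arrays, as given below. So do the members whose windows hold no unit. Among these, Plk2, Cdkn2a and Fas lay higher, Dram1 lower and Pidd1 nearly equal.

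Between the genotypes, 2 of the 28 tested genes rose in Gata3-/- arrays, Zmat3 and Xpc, and 1 fell, Dram1, while 25 did not pass. Of all genes tested, 2.86% were called higher and 2.41% lower (limma, Benjamini-Hochberg over 20102 probe sets, threshold 0.05). The counts of members are too small to be read against those shares. Differences below are Gata3-/- minus Gata3+/- on the log2 scale, and levels are log2 GC-RMA intensities. The differences of the 28 ran from -1.96 for Dram1 to 2.34 for Plk2, with a median of 0.37, against a median of -0.02 over all genes tested. A positive difference was found for 23 of the 28 (82.1%) and for 46.7% of all genes tested. In 15 members every Gata3-/- array lay above every Gata3+/- array, and in 2, Sesn1 and Dram1, below. Over all genes tested 16.9% and 16.7% separated in this way. Leaving out any 1 array left 0 members, and 0 to 4 of all genes, called by limma, and the median difference between 0.30 and 0.38.

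**Figure D1:**
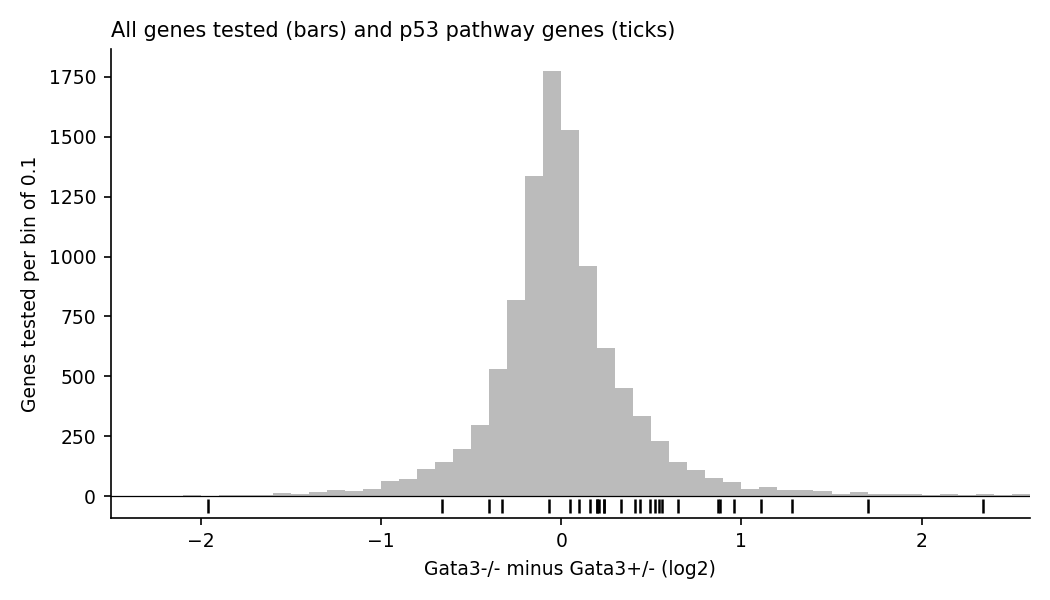
Distribution of the difference between Gata3-/- and Gata3+/- arrays (log2, horizontal axis) over 10302 genes tested, as the number of genes in each bin (vertical axis), with a tick under the axis for each of the 28 p53 pathway genes. Ticks lie mostly to the right of 0, and Dram1 at -1.96 and Plk2 at 2.34 are the outermost; the axis omits genes beyond its ends.

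The regulators of p53 and its feedback genes had 5 tested members, all with positive differences and a median of 0.54, and 0 passed. Cdkn2a encodes an inhibitor of cyclin-dependent kinases and, from another reading frame, ARF, which binds MDM2 and thereby stabilises p53. It gave 5.81, 6.85 and 6.92 in Gata3-/- arrays and 4.36, 4.80 and 5.31 in Gata3+/- arrays. The Gata3-/- arrays all lay above the Gata3+/- arrays, which were close to the minimum of 4 (difference 1.70, SE 0.38, adjusted p = 0.0677). The annotation used does not say which of the gene's products this probe set measures.

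Mdm2, the ubiquitin ligase that marks p53 for degradation, gave 9.80, 10.02 and 9.90 in Gata3-/- arrays and 9.86, 9.81 and 9.45 in Gata3+/- arrays. The genotypes overlapped, and the difference of 0.20 had a 95% interval from -0.14 to 0.53 (adjusted p = 0.448). A second probe set of the gene differed by 0.12 (adjusted p = 0.340). Mdm4, the MDM2 partner that masks the activation domain of p53, differed by 0.24 (interval from -0.08 to 0.55), also with overlapping genotypes. Both intervals end well below a log2 difference of 1, but both include 0.37, the median difference of the 28 members.

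Ccng1, cyclin G1, which brings a phosphatase to MDM2, gave 13.64, 13.78 and 13.87 in Gata3-/- arrays and 13.22, 12.82 and 13.29 in Gata3+/- arrays, without overlap (difference 0.65, SE 0.15, adjusted p = 0.0685). Its 2 other probe sets differed by 0.77 (adjusted p = 0.0522) and 0.78 (adjusted p = 0.0813). Ppm1d, the phosphatase WIP1 that reverses damage signalling, gave 9.05, 9.37 and 9.04 in Gata3-/- arrays and 8.78, 8.49 and 8.58 in Gata3+/- arrays, again without overlap (difference 0.54, SE 0.13, adjusted p = 0.0795). Both genes are on chromosome 11, where neighbouring genes also lay higher, as described further on.

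Arrest and stress response genes had 7 tested members, 6 positive and 1 negative, with a median difference of 0.87. Zmat3 passed and 6 did not. In all 7 the genotypes did not overlap, as in 33.6% of all genes tested. Zmat3, an RNA-binding zinc finger protein, gave 9.42, 9.68 and 9.55 in Gata3-/- arrays and 8.59, 8.39 and 8.79 in Gata3+/- arrays. It rose 1.95-fold (difference 0.96, SE 0.13, adjusted p = 0.0344), with every Gata3-/- array above every Gata3+/- array. Without both arrays numbered 2 the difference was 0.79 (adjusted p = 0.120).

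Cdkn1a encodes p21, the inhibitor of cyclin-dependent kinases through which p53 halts the cycle. Its brighter probe set gave 12.48, 12.20 and 12.28 in Gata3-/- arrays and 11.04, 10.46 and 11.61 in Gata3+/- arrays. The Gata3-/- arrays were close together and above a wider spread in Gata3+/- (difference 1.28, 2.43-fold, SE 0.29, adjusted p = 0.0689). The second probe set, at 11.92, 11.75 and 11.85 in Gata3-/- arrays and 10.57, 10.05 and 10.79 in Gata3+/- arrays, did pass (difference 1.37, SE 0.20, adjusted p = 0.0349). With the mean of both probe sets the gene passed too (difference 1.32, adjusted p = 0.0361).

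Plk2, a polo-like kinase induced by stress and by p53, showed the largest difference among the 28. It gave 10.80, 9.84 and 10.45 in Gata3-/- arrays and 8.55, 6.89 and 8.63 in Gata3+/- arrays. Gata3+/- array 2 was far below the other two, and the genotypes did not overlap (difference 2.34, 5.06-fold, SE 0.53, adjusted p = 0.0690). Without that array the difference was 1.77 (adjusted p = 0.0965).

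Gadd45a, which binds the replication clamp and cyclin-dependent kinase complexes, gave 8.06, 8.55 and 7.72 in Gata3-/- arrays and 7.39, 7.19 and 7.15 in Gata3+/- arrays, without overlap (difference 0.87, SE 0.22, adjusted p = 0.0845). Btg2, an antiproliferative cofactor of mRNA decay, differed by 0.41 (adjusted p = 0.295) in its brighter probe set and by 0.82 (adjusted p = 0.199) in the other. In both, Gata3-/- array 1 was the highest of all arrays.

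The sestrins, which restrain the growth kinase mTORC1 under stress, went in opposite directions. Sesn2 gave 9.74, 9.84 and 9.34 in Gata3-/- arrays and 9.21, 9.32 and 9.09 in Gata3+/- arrays (difference 0.44, adjusted p = 0.164). Sesn1 gave 11.60, 11.43 and 11.74 in Gata3-/- arrays and 11.81, 12.14 and 12.02 in Gata3+/- arrays in its brightest probe set (difference -0.40, SE 0.13, adjusted p = 0.133). Its 2 other tested probe sets did pass. The first differed by -0.73 (adjusted p = 0.0440) and the second by -0.71 (adjusted p = 0.0383). The choice of the brightest probe set therefore decides whether Sesn1 counts among the genes that fell, and the difference between Sesn1 and Sesn2 was not itself tested.

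**Figure D2:**
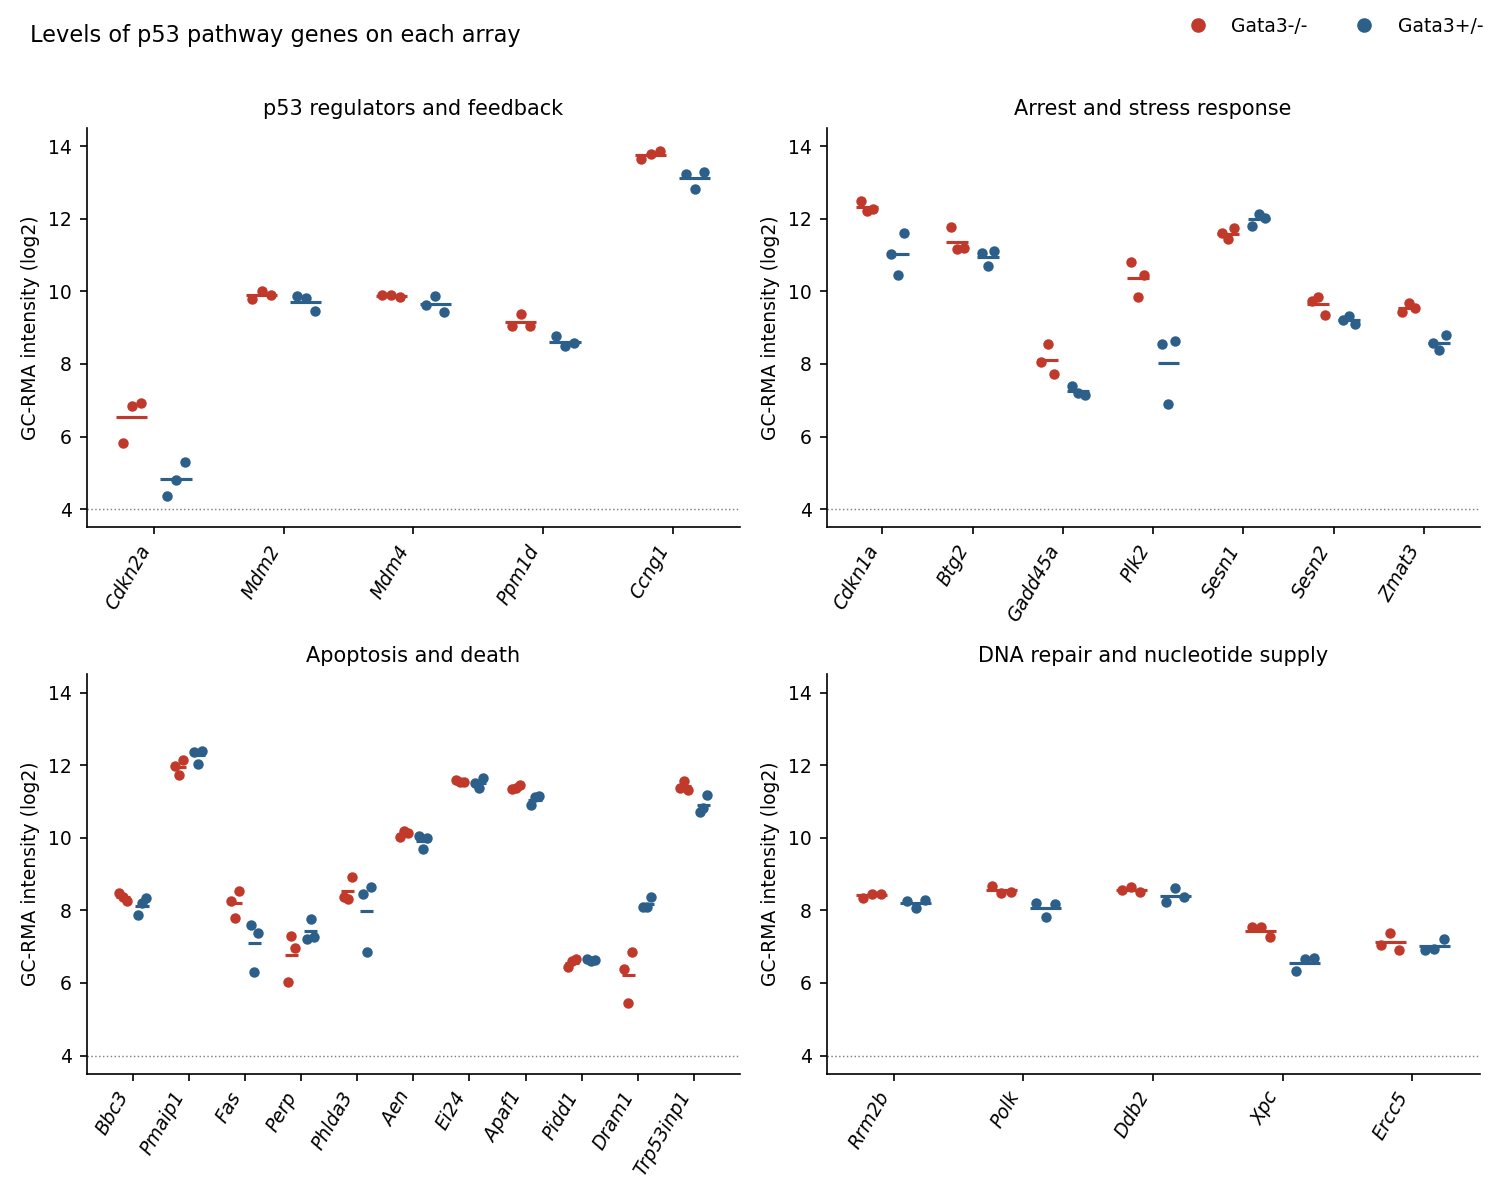
Log2 GC-RMA intensity (vertical axis) of the 28 tested p53 pathway genes, in a panel for each role. Points are single arrays, bars are means, Gata3-/- is left of Gata3+/- for each gene, and the dotted line is the minimum of 4. Zmat3, Cdkn1a and Plk2 stand apart between genotypes, Dram1 does so in the other direction, and Mdm2 and Bbc3 overlap.

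Genes of apoptosis and cell death had 11 tested members, 7 positive and 4 negative, with a median difference of 0.20. Dram1 fell and 10 did not pass. Bbc3 and Pmaip1, genes of proteins that trigger apoptosis at the mitochondrion, gave small differences with overlapping genotypes. Bbc3, which encodes PUMA, a BH3-only protein that triggers apoptosis, gave 8.48, 8.38 and 8.27 in Gata3-/- arrays and 7.88, 8.19 and 8.33 in Gata3+/- arrays. The difference was 0.24 (interval from -0.09 to 0.58, adjusted p = 0.345). Pmaip1, which encodes the related protein NOXA, gave 11.98, 11.72 and 12.13 in Gata3-/- arrays and 12.37, 12.04 and 12.40 in Gata3+/- arrays (difference -0.33, interval from -0.70 to 0.05, adjusted p = 0.267). For Bbc3 and Pmaip1 the intervals stay within a log2 difference of 1 in either direction. That of Bbc3 includes 0.37, the median difference of the 28 members.

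Dram1, a lysosomal membrane protein that links p53 to autophagy, gave 6.39, 5.44 and 6.84 in Gata3-/- arrays and 8.09, 8.08 and 8.36 in Gata3+/- arrays. All Gata3-/- arrays lay below all Gata3+/- arrays, and the gene fell 3.88-fold (difference -1.96, SE 0.36, adjusted p = 0.0472). The call stood close to the threshold. Without chromosomes 6, 11 and 14 the same difference had an adjusted p = 0.0578.

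Among the receptors and scaffolds, Fas, the death receptor, gave 8.26, 7.79 and 8.53 in Gata3-/- arrays and 7.59, 6.30 and 7.38 in Gata3+/- arrays. The groups did not overlap, but Gata3+/- array 2 was again the lowest (difference 1.11, interval from 0.16 to 2.05, adjusted p = 0.161), and without it the difference was 0.71. Apaf1, the scaffold of the apoptosome, gave 11.34, 11.37 and 11.45 in Gata3-/- arrays and 10.89, 11.11 and 11.16 in Gata3+/- arrays (difference 0.33, adjusted p = 0.111). Trp53inp1, a stress protein that promotes p53 activity, differed by 0.52 (adjusted p = 0.103), with no overlap.

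Phlda3, which competes with the survival kinase AKT for membrane lipids, depended on a single array. It gave 8.38, 8.31 and 8.93 in Gata3-/- arrays and 8.44, 6.86 and 8.65 in Gata3+/- arrays, and its difference of 0.56 became -0.00 without Gata3+/- array 2. Perp, a membrane protein of desmosomes and of p53-dependent death, differed by -0.66 (interval from -1.53 to 0.22, adjusted p = 0.333). The nuclease gene Aen, the endoplasmic reticulum protein gene Ei24 and Pidd1, the scaffold that activates caspases after damage, had differences of 0.20, 0.05 and -0.07, and in each the genotypes overlapped.

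DNA repair and nucleotide supply genes had 5 tested members, all with positive differences and a median of 0.21. Xpc passed and 4 did not. Xpc, the damage sensor that starts global nucleotide excision repair, gave 7.53, 7.53 and 7.26 in Gata3-/- arrays and 6.34, 6.66 and 6.68 in Gata3+/- arrays. It rose 1.84-fold with no overlap (difference 0.88, SE 0.13, adjusted p = 0.0362). The other sensor of that pathway, Ddb2, and the endonuclease gene Ercc5 had differences of 0.16 (interval from -0.13 to 0.45) and 0.10 (interval from -0.28 to 0.48), with overlapping genotypes.

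Polk, a DNA polymerase that copies past damaged bases, gave 8.68, 8.48 and 8.52 in Gata3-/- arrays and 8.20, 7.83 and 8.18 in Gata3+/- arrays, without overlap (difference 0.49, SE 0.13, adjusted p = 0.0903). Its second probe set, at a lower level, differed by 0.51 (adjusted p = 0.172). Rrm2b, the p53-inducible subunit of ribonucleotide reductase, differed by 0.21 (adjusted p = 0.229). It was the 1 member, of 14 with more than 1 tested probe set, whose tested probe sets had opposite signs, the negative one being -0.01.

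**Figure D3:**
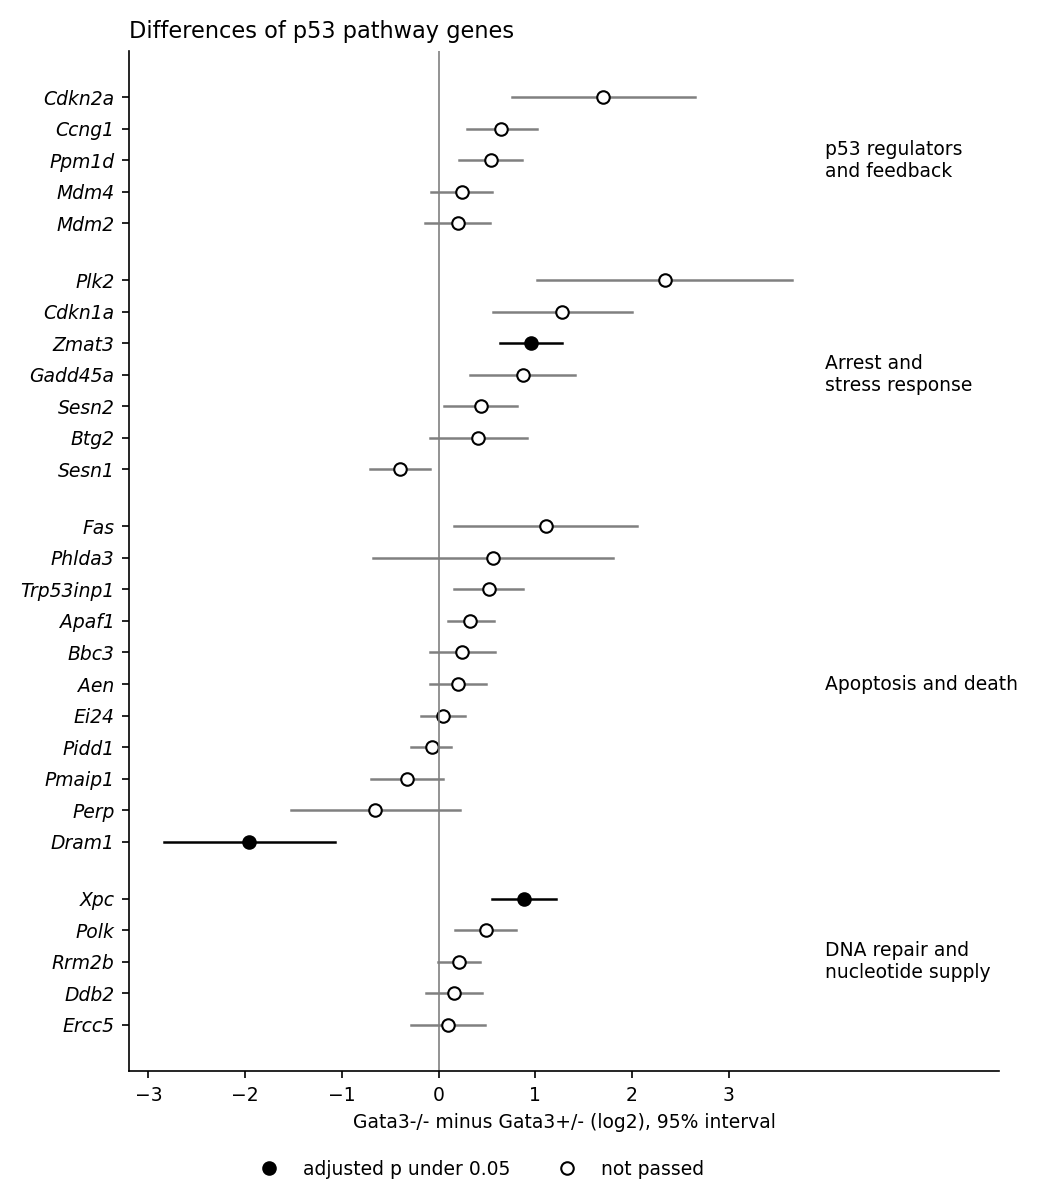
Difference between Gata3-/- and Gata3+/- arrays (log2, horizontal axis) of each tested p53 pathway gene, ordered by size within its role, with limma's 95% interval for 3 arrays of each genotype. Filled circles mark Zmat3, Xpc and Dram1, which passed over all probe sets; the intervals of Mdm2, Mdm4 and Bbc3 include 0.

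Position on the chromosome moved with part of the result. The 886 genes tested on chromosome 11 had a median difference of 0.33, the 342 on chromosome 14 of 0.10 and the 517 on chromosome 6 of 0.00. In the same order, 88.3%, 60.8% and 50.9% of these genes had positive differences. All Gata3-/- arrays lay above all Gata3+/- arrays in 507, 125 and 129 of them. For each member the median difference of its 24 nearest tested neighbours, 12 on each side, was taken. It was 0.43 around Xpc, 0.31 around Ccng1 and 0.32 around Ppm1d. The differences of these genes from their neighbours' medians were 0.45, 0.34 and 0.22. Around Gadd45a, also on chromosome 6, the neighbours' median was -0.03. Around Zmat3, on chromosome 3, it was -0.06, around Cdkn1a -0.01, around Plk2 -0.18, around Cdkn2a -0.04 and around Dram1 -0.09. What part the neighbourhood has in the values of Xpc, Ccng1 and Ppm1d was not tested.

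With chromosomes 6, 11 and 14 left out, 24 tested members remained. Gadd45a, Xpc, Ccng1 and Ppm1d were the tested members left out. Of the 24, Zmat3 rose (adjusted p = 0.0418) and 0 fell by limma, where 1.11% of the 8557 genes in this fit were called higher and 1.6% lower. The median difference of the 24 was 0.24, against -0.04 over the 8557 genes. In 11 of the 24 all Gata3-/- arrays lay above all Gata3+/- arrays, and in 2 below, where 11.4% and 18.6% of the 8557 genes separated so.

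**Figure D4:**
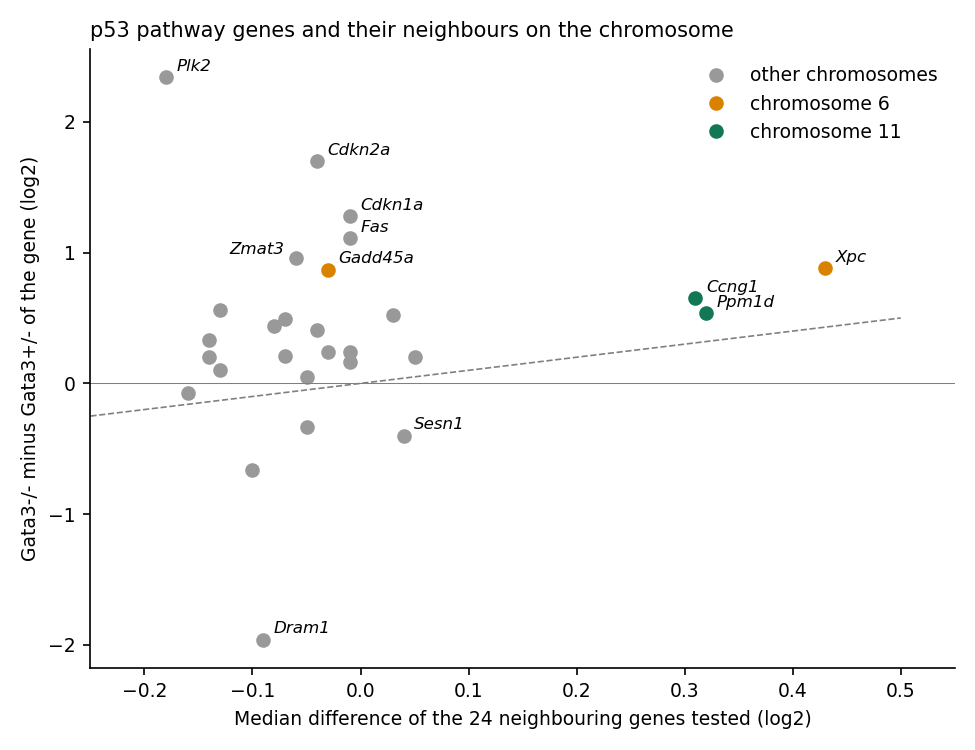
Difference of each tested p53 pathway gene between Gata3-/- and Gata3+/- arrays (log2, vertical axis) against the median difference of its 24 neighbouring tested genes (log2, horizontal axis), with equal values on the dashed line. Xpc, Ccng1 and Ppm1d lie at neighbour medians of 0.31 to 0.43, while Plk2, Cdkn2a, Cdkn1a and Zmat3 lie at medians below 0.

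Other genes of the pathway, taken from lists of kinases, cofactors and further targets, had median differences near 0 or below it. Of 13 upstream kinases and cofactors, 0 passed with limma and the median difference was -0.01. At an unadjusted p under 0.05 there were 3 of the 13, against 25.8% of all genes tested. Trp53bp1, an adaptor at DNA breaks, gave 10.33, 10.36 and 10.22 in Gata3-/- arrays and 9.94, 10.06 and 9.93 in Gata3+/- arrays (difference 0.33, adjusted p = 0.0759). Hipk2, a kinase that phosphorylates p53, averaged 10.25 ± 0.27 in Gata3-/- arrays and 11.06 ± 0.15 in Gata3+/- arrays (SD, n = 3 each, difference -0.81, adjusted p = 0.0526). Hipk2 is on chromosome 6, where its neighbours' median was -0.10. Of 16 alternative limma fits that kept the gene, 5 called it, with adjusted p from 0.0283 to 0.185. Atm, Atr, Chek1 and Chek2, the damage-sensing kinases, had differences of 0.19, 0.18, -0.04 and 0.06.

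Of 22 further p53 targets, 17 were tested, of which 8 were positive and 9 negative, with a median of -0.06. Siva1, a proapoptotic adaptor, fell (9.59 to 9.67 in Gata3-/- arrays, 9.97 to 10.05 in Gata3+/- arrays, difference -0.36, adjusted p = 0.0498), and 16 did not pass. Siva1 was called in 4 of the 17 alternatives, with adjusted p from 0.0246 to 0.195, and in none of those that left out an array. Sesn3, the remaining sestrin, differed by 0.58 and Tob1, an antiproliferative relative of Btg2, by 0.68, both with no overlap and without passing (adjusted p = 0.192 and 0.193). Tob1 is on chromosome 11, and its neighbours' median was 0.20.

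Genes that p53 represses through p21 and the DREAM repressor complex, most of them mitotic, had 19 tested members. Of these, 17 had negative and 2 positive differences, with a median of -0.32, and 0 passed with limma. At an unadjusted p under 0.05, 9 were lower, against 12.3% of all genes tested. In 11 of the 19 all Gata3-/- arrays lay below all Gata3+/- arrays, against 16.7% of all genes tested. Aurka, a mitotic kinase, gave 10.16, 10.37 and 10.40 in Gata3-/- arrays and 10.85, 10.84 and 10.72 in Gata3+/- arrays (difference -0.50, adjusted p = 0.0508). Bub1b, of the spindle checkpoint, gave 9.50, 9.87 and 9.68 in Gata3-/- arrays and 10.20, 10.30 and 10.16 in Gata3+/- arrays (difference -0.54, adjusted p = 0.0595). Of the 3 genes of the list on chromosome 11, Birc5, Aurkb and Top2a differed by -0.01, 0.02 and 0.07, and the 2 positive members are among them.

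Levels were also averaged over each role, array by array. The mean of the 7 arrest and stress genes was 10.55, 10.39 and 10.32 in Gata3-/- arrays and 9.66, 9.30 and 9.77 in Gata3+/- arrays. The mean of the 5 regulators and feedback genes was 9.64, 9.99 and 9.91 in Gata3-/- arrays and 9.17, 9.16 and 9.21 in Gata3+/- arrays. For the 11 apoptosis genes it was 9.12, 9.11 and 9.34 in Gata3-/- arrays and 9.22, 8.99 and 9.36 in Gata3+/- arrays. The genotypes thus overlapped in this role and in none of the other roles. This mean includes Dram1, with a difference of -1.96, while 7 of the 11 genes had positive and 4 negative differences. The mean without Dram1 was not taken, so the overlap cannot be read as one of the whole role. The 5 repair genes averaged 7.93 to 8.09 in Gata3-/- arrays and 7.59 to 7.75 in Gata3+/- arrays. Differences between the roles were not tested.

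Lists of stromal and of immediate early genes varied from array to array. Of 17 markers of OP9 stroma, 16 had a probe set and 14 were tested, and Lum and Dcn were under the minimum on every array. Their summed intensity ran from 4793 to 19367 in Gata3-/- arrays and from 5864 to 19907 in Gata3+/- arrays, lowest on array 2 of both genotypes. Gata3+/- array 2 was also the lowest array of its genotype for 15 of the 28 members, among them Plk2, Cdkn1a, Fas, Phlda3, Ccng1 and Polk. Gata3-/- array 2, with the lowest stromal sum of all, was the lowest of its genotype for 9 members. The part of stromal RNA in these genes' values was not tested.

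Immediate early genes, which respond to handling, had 12 tested members of 14, with a median difference of 0.37, 10 positive and 2 negative. None passed with limma (1 at an unadjusted p under 0.05, Nr4a1, with a difference of 0.65). Their summed intensity ran from 27345 to 48689 in Gata3-/- arrays and from 19316 to 39049 in Gata3+/- arrays, highest on array 1 of both genotypes, and Hspa1a and Hspa1b were under the minimum throughout. Btg2, which also responds as an immediate early gene, was highest on Gata3-/- array 1. Among Gata3+/- arrays, however, both its probe sets were highest on array 3, at 11.12 and 9.31. The part of immediate early genes in the values of Btg2, Plk2 and Gadd45a was not tested. Markers of dendritic cells had summed intensities of 27007 to 37735 in Gata3-/- arrays and 10723 to 17459 in Gata3+/- arrays, without overlap. Most of the sum in Gata3-/- arrays came from 1 gene, Ccr7. It gave 14.83, 14.35 and 14.74 there and 13.10, 10.62 and 12.95 in Gata3+/- arrays, so the gap cannot be read as one of the whole list. The 7 tested dendritic markers went both ways. Ccr7, Zbtb46 and Flt3 lay higher in all Gata3-/- arrays than in all Gata3+/- arrays. Irf8 (difference -0.67), Batf3 (-0.78) and Siglech lay lower in all Gata3-/- arrays. Siglech gave 3.76, 3.81 and 3.04 in Gata3-/- arrays, all under the minimum of 4, and 7.59, 9.02 and 7.50 in Gata3+/- arrays. It passed the filter only through its Gata3+/- arrays, so its separation is no independent result and its difference has no sure size. The mean log2 level of the 7 markers overlapped, at 8.95 to 9.34 in Gata3-/- arrays and 8.92 to 9.27 in Gata3+/- arrays. Markers of macrophages and monocytes summed to 49621 to 55018 in Gata3-/- arrays and 58400 to 68877 in Gata3+/- arrays, also without overlap. Of these 9 markers, 7 had negative and 2 positive differences. Fcgr1 alone passed with limma (difference -0.70, adjusted p = 0.0431). Cd68, on chromosome 11 with a neighbours' median of 0.38, lay higher in all Gata3-/- arrays (difference 0.53). The part of dendritic and of macrophage markers in the p53 pathway genes was not tested.

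**Figure D5:**
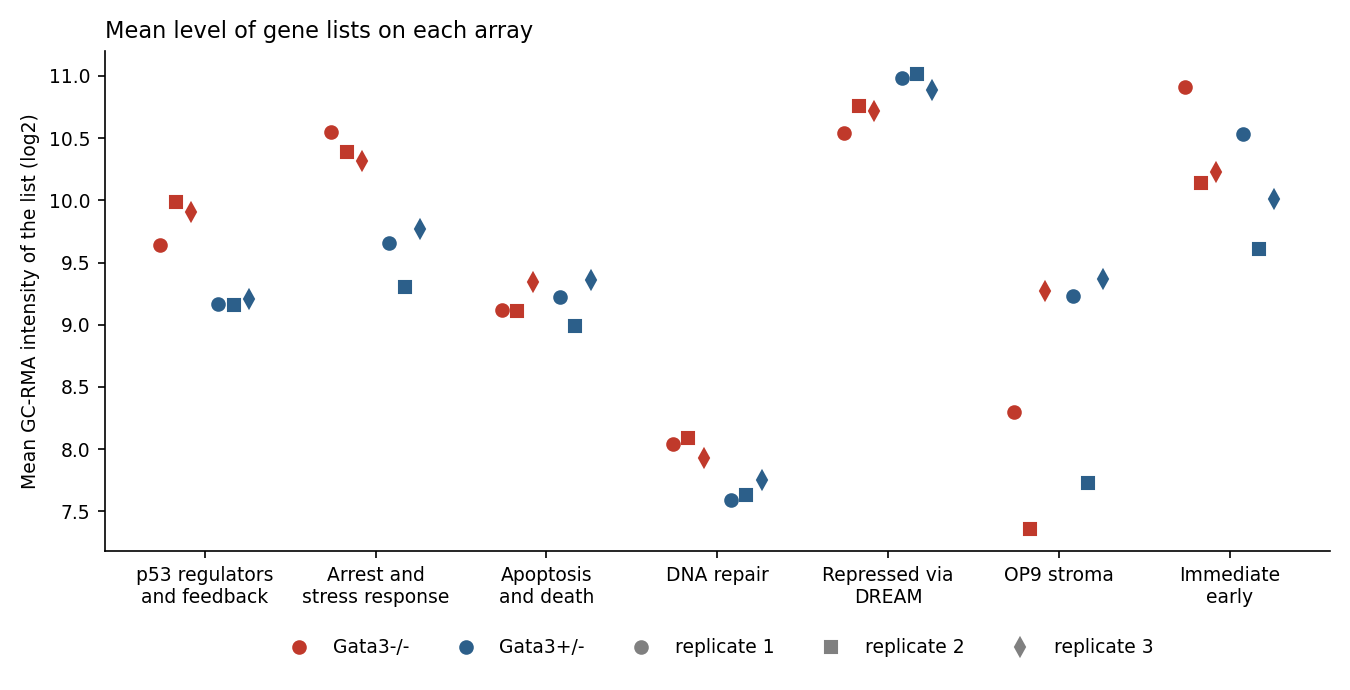
Mean log2 GC-RMA intensity (vertical axis) of the tested genes of each list on each array, Gata3-/- left of Gata3+/-, with a symbol for each replicate number. The arrest and stress genes lie at 10.32 to 10.55 in Gata3-/- arrays and 9.30 to 9.77 in Gata3+/- arrays; OP9 stroma genes overlap and are lowest on replicate 2 of each genotype.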

How the data were processed

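Gene expression was measured on 6 Affymetrix arrays, 3 for each genotype, and genotypes and replicate numbers were taken from the array titles. The deposited table holds intensities on a linear scale for 45101 probe sets. Per the labels, the authors made them with GC-RMA, which corrects background from probe sequence and normalizes between arrays. The submitters' processing notes also list GCOS, without a version, and no settings are stated. Array medians lay between 8.55 and 8.9 on this linear scale, under the intensity of 16 that was asked for testing. The number of arrays limits the precision.

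The log2 of each intensity was taken without further normalization, and the 64 control probe sets were dropped. Testing was limited to the 20102 probe sets with a log2 value of 4 or more (intensity 16) on 3 or more arrays. The platform annotation gave 34945 probe sets 1 gene symbol, 932 several, and 9160 were not listed. Chromosome and gene order came from RefSeq genes of GRCm38.p6, joined on the gene identifier, which changed 0 symbols. Each gene was represented by its brightest probe set over the 6 arrays. The genotypes were compared by limma (3.58.1, under R 4.3.3) with lmFit and eBayes (two-sided, Benjamini-Hochberg over all probe sets tested, threshold 0.05). The procedure was also run on simulated data. These drew every probe set and array independently, so they do not cover deviations shared between arrays and cannot vouch for the calls. Tables and plots were made in Python version 3.11.15 with matplotlib version 3.10.9. Marker sums add linear intensities over the brightest probe set of each marker.

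The members, roles, lists and the rule for named genes were chosen with earlier results of these data known. Values in every array were given for members past the threshold, the 10 members with the smallest p, Mdm2 and Bbc3, and for a few more members chosen after their values were seen. From other pathway lists, genes past the threshold or otherwise the 2 with the smallest p were named, and the damage kinases, Sesn3, Tob1 and the chromosome 11 genes of the DREAM list were likewise added later. Alternatives changed the filter (none, or 6 in place of 4), the scale (quantile normalization, median centring, or log2 of the intensity plus 16), the variance model (robust with a trend, or array weights), the design (a block for the replicate number) and the genes (the mean of a gene's probe sets, or no genes of chromosomes 6, 11 and 14), or left out each array. The fit without both arrays numbered 2 was chosen after seeing the data. Arrays with the same number, taken as deviations from their genotype's mean, correlated by 0.00501, 0.695 and 0.429 for numbers 1, 2 and 3. Arrays numbered 2 and 3 thus deviated together and those numbered 1 did not, which does not settle whether the numbers pair arrays. The main fit has no pairing. The choice matters, since with the replicate block limma gave adjusted p = 0.056 for Zmat3, 0.0622 for Xpc and 0.051 for Dram1.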

Additional observations from a re-analysis of the deposited data

How the results depend on the processing

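With all choices as reported, 2 members were called higher, 1 lower, and the median difference was 0.37. The calls were 0 higher and 0 lower without a filter (median 0.25), 8 higher with array weights, 5 higher and 2 lower with the mean of a gene's probe sets, 1 higher and 0 lower without chromosomes 6, 11 and 14 (median 0.24), and 0 and 0 without both arrays numbered 2. Leaving out each array in turn gave 0 to 0 higher, 0 to 0 lower and medians from 0.30 to 0.38, with 0 to 4 of all genes called in these smaller fits. The differences were then 0.86 to 1.06 for Zmat3, 0.77 to 0.97 for Xpc and -2.26 to -1.57 for Dram1. With the replicate block 2 members were called higher, Cdkn2a and Plk2 in place of Zmat3 and Xpc, and 0 lower. The numbers are not known to pair arrays. Under quantile normalization, median centring, the stricter filter and the added intensity, limma called Zmat3, Xpc and Dram1 and no other member, and the variance trend called Ccng1 as well.

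Over all genes 543 were called, against 98 without a filter, 824 with the variance trend, 1224 with array weights, 298 with the replicate block, 232 without chromosomes 6, 11 and 14 and 3 without both arrays numbered 2. Some differences that were never called changed sign, or vanished, when arrays were left out. Over the fits without 1 array, Phlda3 ran from -0.00 to 0.89 and Ei24 from -0.02 to 0.12 (both lowest without Gata3+/- replicate 2), Ercc5 from -0.03 to 0.20 and Gata3 from -0.21 to 0.30 (both lowest without Gata3-/- replicate 2). Without both arrays numbered 2, Ei24 stood at -0.01 and Ercc5 at -0.07. The cause was not tested. Cdkn1a kept a difference of 0.99 to 1.57 and Plk2 of 1.77 to 2.64 over the 17 alternatives run, and Cdkn2a of 1.29 to 2.06 over 16, since the stricter filter dropped it.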
